A study of Homo sapiens with 4 samples.

Results

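Doxycycline (Dox), given to switch on Tet-controlled genes, was here given to SK-MEL-28 cells that carried only the empty pTRIPZ vector (vector line), so this comparison shows how the transcriptome of the control cells stood with and without the inducer. The parental line, SK-MEL-28, is a long-established cell line from a human melanoma. The pair was chosen by its labels, empty vector with Dox against empty vector without Dox, and makes up 2 of the 4 RNA-Seq libraries. The remaining 2 libraries came from SK-MEL-28 cells with a Tet-inducible MYC gene (MYC-inducible line), also with and without Dox, and are used only for reference. Dox was present at 0.5 μg/ml for 54 h, and all 4 cultures were grown with the selection drug G418. Both lines were made by lentiviral transduction and drug selection, and the sources used here do not describe the isolation of clones. Because pTRIPZ itself carries a Dox-responsive transactivator, an effect of Dox on the cells and an effect of the activated transactivator cannot be told apart. There was 1 library per condition, so no difference has a replicate check, no p-value is given, and the values below describe these libraries.

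Dox is a tetracycline. Tetracyclines inhibit the ribosomes of bacteria and also those of mitochondria, and they bind divalent metal ions. Stress at the mitochondrion, a shortage of amino acids and unfolded protein in the endoplasmic reticulum (ER) can each lead to phosphorylation of the initiation factor eIF2α, which favours translation of the transcription factor ATF4. ATF4 and its partner CHOP, encoded by DDIT3, then activate genes of amino acid supply, glutathione turnover and feedback on the pathway, a programme called the integrated stress response.

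Values are FPKM, the fragments of a transcript scaled to its length and to the number of mapped fragments, and each pair of values is given without Dox first and with Dox last. A change is the difference of log2(FPKM + 0.1), with Dox minus without Dox, which understates the change of low genes, and a gene is said to have risen or fallen only when this change reached 1.5-fold. The table held 11147 gene symbols whose mean over all libraries was 1 FPKM or more. From very low values, the depth was estimated at about 42200000 fragments for the untreated vector library and 37900000 for the treated library. The counting errors quoted below are approximate, rest on these depths and annotated transcript lengths, and leave out differences between cultures. The melanocyte genes PMEL (6176 and 6227 FPKM), MLANA (1252 and 1187 FPKM), SOX10 (197 and 194 FPKM) and MITF (82.6 and 85.6 FPKM) were expressed in both libraries. Of the defining markers of other cells, PTPRC and CD3E of immune cells were listed at 0 in both vector libraries and CD14 had at most 0.0349 FPKM. LYZ, also on the immune list, had 1.09 and 1.44 FPKM in the vector line and 1.75 and 0.997 FPKM in the other. In the vector line the 3 endothelial markers summed to at most 0.107 FPKM, and COL1A1 and COL1A2 of fibroblasts were at most 0.0164 FPKM. LUM (29.7 and 27.7 FPKM) and KRT10 (15.6 and 18.1 FPKM) were the only markers of the fibroblast and keratinocyte lists above 1 FPKM. Of the epithelial markers, EPCAM had 0.658 and 0.769 FPKM in the vector line and 0.726 and 2.71 FPKM in the MYC-inducible line. CDH1 had at most 0.232 FPKM.

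Most of the transcriptome of the vector line was nearly level. The median log2 change was 0.01, 54.2% of all genes were higher with Dox, and 95.9% of the 11147 genes stayed within 1.25-fold. In the library with Dox 79 genes had risen, 0.709% of those measured, and 49 had fallen, 0.440% of those measured. Excluding short noncoding RNAs, discussed at the end, 65 genes had risen and 39 had fallen. Most of them were low, since 46 of the 65 and 35 of the 39 had a mean under 5 FPKM, and no gene at or above 100 FPKM passed 1.5-fold. For comparison, 98 genes (0.879%), or 75 without the short RNAs, were at least 1.5-fold apart in either direction between the untreated libraries. The log2 change with Dox had a robust SD across genes of 0.107, and the log2 difference between untreated libraries had a robust SD of 0.106. A spread of this size thus also separated libraries that had received no Dox. Many of the genes below, but not all, are given with their values in the MYC-inducible line. In bulk RNA, fewer cells with a transcript and less of it per cell cannot be told apart.

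**Figure D1:**
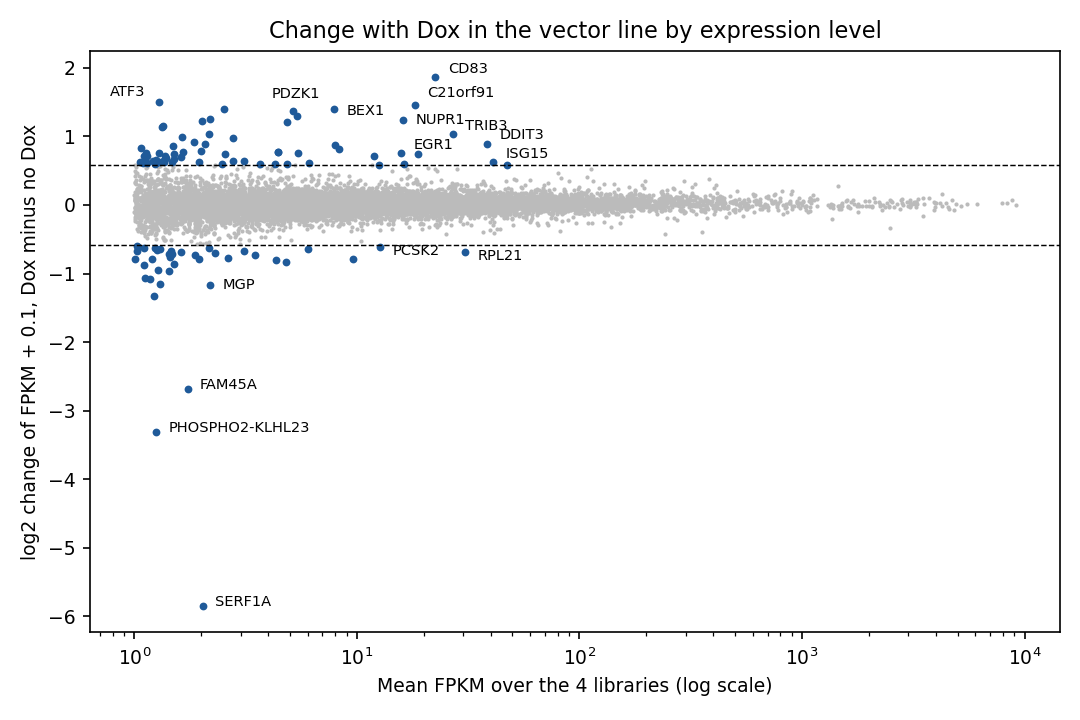
Each point is a gene with a mean of at least 1 FPKM, without short noncoding RNAs, with its mean FPKM on a log axis and its log2 change with Dox in the vector line on the vertical axis. Blue points lie past 1.5-fold (dashed lines), and most of the 65 raised and 39 lowered genes sit at the low end of the level axis, with CD83, C21orf91, NUPR1, TRIB3 and DDIT3 standing out among the higher ones.

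CD83, a membrane protein of the immunoglobulin superfamily best known from mature dendritic cells, showed the largest rise among genes at or above 5 FPKM, short RNAs aside. CD83 had 13.3 FPKM in the untreated and 48.7 FPKM in the treated vector library. The MYC-inducible line had 13.3 and 14.8 FPKM. The Dox library of the vector line was thus alone above the other 3, which lay between 13.3 and 14.8 FPKM. The log2 change was 1.86 (approximate counting error 0.0473), a 3.66-fold rise, against 0.15 in the MYC-inducible line. CD83 lies on chromosome 6 of GRCh37 from 14117487 to 14137149, and the genes looked up beside it stayed near their level, with RNF182 at 10.97 and 10.08 FPKM and MCUR1 at 10.7 and 11.2 FPKM. RNF182, MCUR1 and the other neighbouring genes below were picked after the values were seen.

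C21orf91, a gene on chromosome 21 (19161291 to 19191703, minus strand), behaved differently, because it moved in both lines. It had 10.1 FPKM without and 27.9 FPKM with Dox in the vector line, and 11.04 FPKM without and 23.7 FPKM with it in the MYC-inducible line. Both Dox libraries stood above both untreated libraries, with log2 changes of 1.46 (counting error 0.0362) and 1.10. Near it, BTG3, an antiproliferative gene, had 71.6 and 80.4 FPKM in the vector line. CHODL, a C-type lectin that stayed under the filter, had 0.578 and 1.10 FPKM in the vector line and 0.671 and 1.11 FPKM in the MYC-inducible line. The overlapping transcript C21orf91-OT1 shares the locus, and the strand of the reads is not given in the sources used here, so their reads cannot be told apart.

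BEX1 and BEX2 are small X-linked genes of the brain-expressed family, and both had risen. BEX1 had 5.83 and 15.6 FPKM in the vector line, a log2 change of 1.40 (counting error 0.138). BEX1 had 5.30 and 4.78 FPKM in the MYC-inducible line, so that the rise was seen in the vector line alone. BEX2 had 15.1 and 25.3 FPKM in the vector line and 12.9 and 22.0 FPKM in the MYC-inducible line, with log2 changes of 0.74 and 0.77. Both Dox libraries were above both untreated libraries for BEX2. BEX4 (59.8 and 66.2 FPKM, log2 change 0.15) did not pass 1.5-fold. The family members were looked up after the values of BEX1 were seen, and BEX2 falls outside the rule for named genes.

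PDZK1, a scaffold protein of membrane transporters, had 5.59 FPKM without and 14.7 FPKM with Dox, a log2 change of 1.37 (counting error 0.0814). It was nearly lacking in the other line, with 0.180 FPKM without and 0.218 FPKM with Dox, so the libraries of the 2 lines did not overlap with or without Dox. The pseudogene copy PDZK1P2 followed it, with 2.25 and 5.41 FPKM in the vector line and 0.1604 and 0.232 FPKM in the other, and reads may be split between the copies. Summed over both, the vector line had 7.84 and 20.1 FPKM. The nearby genes RNF115 (7.89 and 7.96 FPKM) and GPR89A (9.29 and 10.01 FPKM) were level.

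RAB8B, a small GTPase of membrane traffic, had 6.77 and 11.96 FPKM (log2 change 0.81, counting error 0.0506), and 7.03 and 7.40 FPKM in the MYC-inducible line. LINC01023, a long noncoding RNA, had 6.01 and 11.1 FPKM in the vector line and 8.19 and 6.59 FPKM in the other, where the order of the libraries was the opposite. SLC25A36, a mitochondrial carrier of pyrimidine nucleotides, had 9.23 and 15.2 FPKM in the vector line and 8.995 and 14.3 FPKM in the MYC-inducible line. The SLC25A36 libraries with Dox were thus above those without in both lines, with log2 changes of 0.72 and 0.66. ANKRD54 had 41.9 and 63.0 FPKM, which was just past 1.5-fold, and 37.4 and 47.5 FPKM in the other line. SLC25A36 and ANKRD54 were named after their values were seen. Among the lower genes, SEMA3A, a secreted axon guidance factor, had 1.51 and 3.22 FPKM, and 1.63 and 2.33 FPKM in the MYC-inducible line. KRTAP19-1, a hair keratin-associated protein gene, had 1.19 and 3.29 FPKM, but 3.14 and 2.50 FPKM in the other line, so the untreated vector library was alone in being low.

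**Figure D2:**
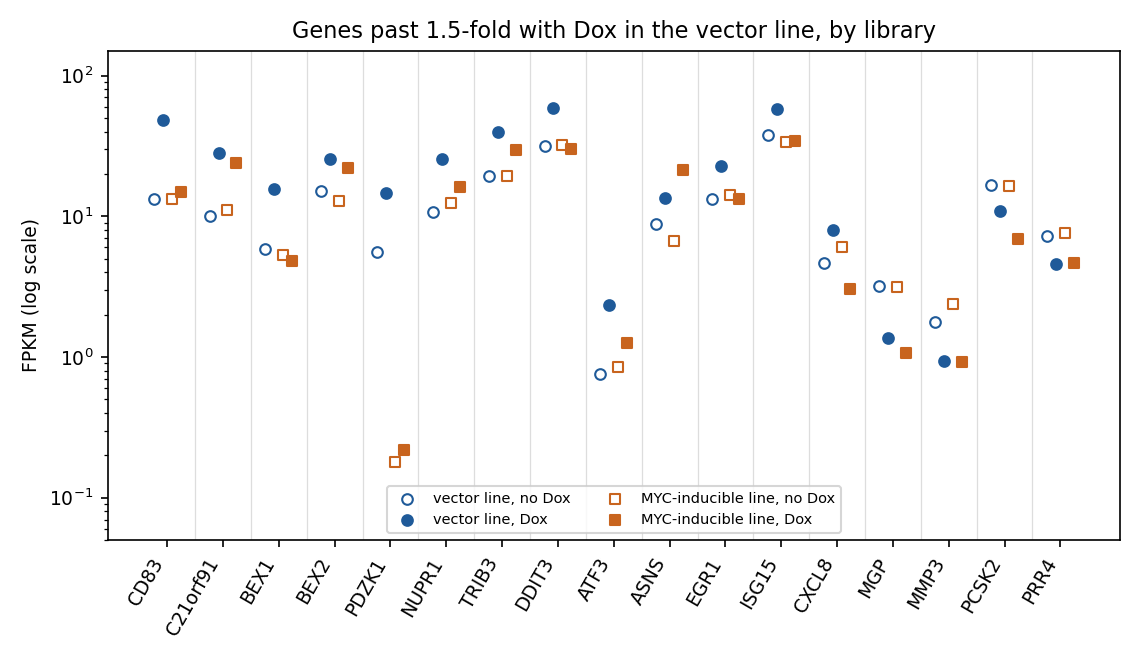
FPKM on a log axis of 17 genes past 1.5-fold with Dox in the vector line, in the 4 libraries (circles, vector line; squares, MYC-inducible line; filled, with Dox). CD83, BEX1, DDIT3, EGR1 and ISG15 are high only in the vector line with Dox, C21orf91, BEX2 and ASNS are high with Dox in both lines, and MGP, MMP3, PCSK2 and PRR4 are low with Dox in both lines.

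The ATF4 and CHOP branch of the stress response held 6 of the 65 raised genes. The list held 18 regulators, targets and feedback genes, of which 15 passed the filter; FGF21, JDP2 and STC2 did not, with at most 0.482 FPKM in any library. Of the 15, 6 rose and none fell, against the 0.709% raised among all genes, and 12 of the 15 were higher with Dox. Their median log2 change was 0.22, against 0.01 for all genes. This and the other gene lists were chosen with earlier results of these data known, so such shares are descriptive only. Among the transcription factors, DDIT3 had 31.7 and 59.0 FPKM in the vector line, a log2 change of 0.90 (counting error 0.0582). DDIT3 had 32.3 and 30.3 FPKM in the MYC-inducible line, so the vector line with Dox was alone in being high. DDIT3 overlaps MARS1 and MBD6 in the annotation. ATF3, a stress-induced factor of the same leucine zipper class, had 0.757 and 2.32 FPKM in the vector line and 0.854 and 1.25 FPKM in the MYC-inducible line, a 3.07-fold rise in the vector line and a log2 change of 0.50 in the other. The counting error of ATF3 was 0.224, the widest of the 6. ATF3 was under 1 FPKM in both untreated libraries and passed the filter only through its libraries with Dox. Its place among the 6 thus follows partly from the filter.

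NUPR1, a stress-inducible chromatin protein, had 10.7 and 25.5 FPKM in the vector line (log2 change 1.24, counting error 0.0363) and 12.5 and 16.03 FPKM in the MYC-inducible line. TRIB3, a pseudokinase that feeds back on ATF4 and on AKT, had 19.3 and 39.7 FPKM, a log2 change of 1.03, and 19.4 and 29.6 FPKM in the other line. Both Dox libraries were above both untreated ones for NUPR1 and TRIB3, with the higher value in the vector line. CHAC1, which degrades glutathione, had 2.05 and 4.12 FPKM (log2 change 0.97), and SESN2, a leucine sensor upstream of mTORC1, had 1.45 and 2.82 FPKM (0.92). In the MYC-inducible line CHAC1 had 2.09 and 2.86 FPKM and SESN2 had 1.41 and 1.70 FPKM. PPP1R15A, whose product GADD34 directs dephosphorylation of eIF2α, had 83.1 and 109 FPKM, a log2 change of 0.39 that did not pass 1.5-fold. ATF4, which is controlled mainly at translation, had 209 and 224 FPKM in the vector line (log2 change 0.10) and 197 and 303 FPKM in the MYC-inducible line (0.62). GDF15, a secreted stress cytokine, had 452 and 510 FPKM in the vector line but 458 and 242 FPKM in the other. The lowest member, VLDLR, had 1.91 and 1.76 FPKM, a log2 change of -0.11. In the MYC-inducible line, where Dox also turns on MYC, 3 of the same 15 rose and 2 fell, against 5.90% and 8.85% of all genes. Dox and MYC cannot be told apart there.

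**Figure D3:**
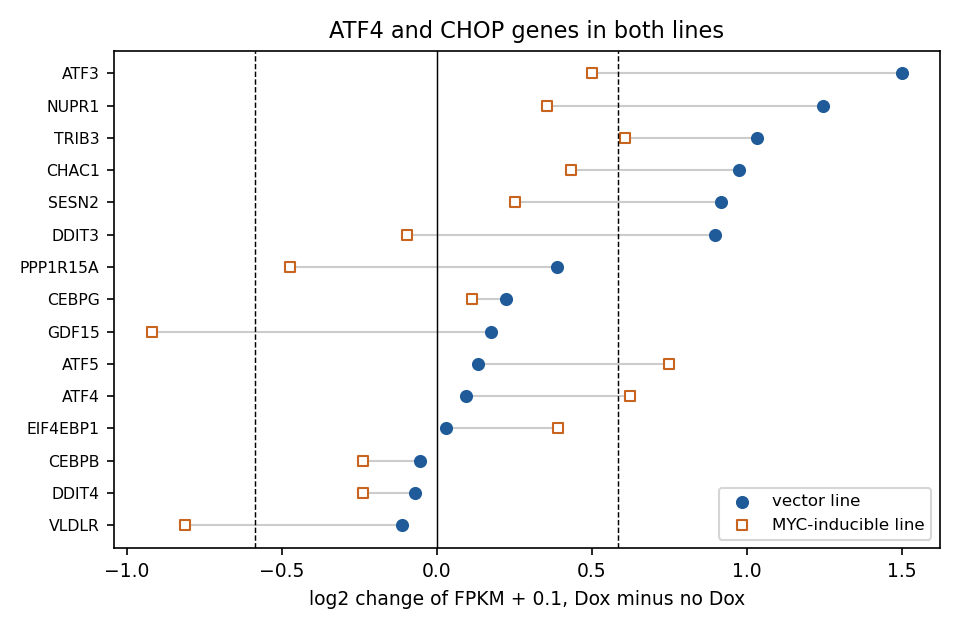
log2 change with Dox of the 15 measured genes of the ATF4 and CHOP list in the vector line (circles) and in the MYC-inducible line (squares), with 1.5-fold marked by dashed lines. ATF3, NUPR1, TRIB3, CHAC1, SESN2 and DDIT3 lie past 1.5-fold in the vector line, and of these TRIB3 does so in the MYC-inducible line.

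Because ATF4 acts through a composite element whose core reads TGATGNAA, the windows from 250 bases before to 50 bases after each RefSeq start (GRCh38.p14) were searched for it on both strands. It was found in 5 of the 16 list members with a window (31.2%), which leaves out NUPR1 and EIF4EBP1, and in 4.46% of 27305 gene symbols. The 5 were ATF3, CHAC1, CEBPG, JDP2 and FGF21, so that 2 of the 5 raised members with a window held it. JDP2 and FGF21 had not passed the filter on expression. The list was made of genes already tied to ATF4 and CHOP. A higher share than among all symbols was thus built into it and says nothing of Dox. The cyclic AMP response element TGACGTCA was found in 1 of the 16 (6.25%) and in 2.25% of all symbols. A match is a description of letters and not of a bound site, and the absence of one says only that these letters are not in the window. The raised and lowered genes outside the list were searched as well, and no share over them is given. ASNS and SLC25A36, which are not on the list, were picked because they held a match. The stretches below, of 30 bases each, are shown to let the reader see the elements beside raised genes (ATF3, CHAC1, ASNS, SLC25A36) and beside PPP1R15A, which did not pass 1.5-fold. They are written 5′ to 3′ on the strand of the gene, with the matched element in capitals, which in CHAC1 stands on the opposite strand. On GRCh37 they lie at chr1:212738547-212738576 (ATF3, plus strand), chr15:41245449-41245478 (CHAC1, plus strand), chr7:97501770-97501799 (ASNS, minus strand), chr19:49375609-49375638 (PPP1R15A, plus strand) and chr3:140660550-140660579 (SLC25A36, plus strand). ATF3 and SLC25A36 stretches lie outside the exons that GENCODE gives these genes, whereas those of CHAC1, ASNS and PPP1R15A lie within or overlap the untranslated first exon of longer annotated transcripts.
ATF3: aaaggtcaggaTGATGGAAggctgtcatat
CHAC1: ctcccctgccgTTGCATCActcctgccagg
ASNS: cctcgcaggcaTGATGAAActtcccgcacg
PPP1R15A: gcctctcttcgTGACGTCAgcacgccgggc
SLC25A36: tgcagagtgcgTGACGTCAcgacgctcaca

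The genes of amino acid supply moved little beside those of the stress branch. ASNS, which makes asparagine, had 8.88 and 13.4 FPKM in the vector line (log2 change 0.59, counting error 0.0660), just past 1.5-fold, and 6.72 and 21.1 FPKM in the MYC-inducible line (1.64). It was the only one of 12 measured enzymes of amino acid and one-carbon metabolism that rose, and the median of the list was 0.08, with 11 of the 12 higher with Dox. CTH, of cysteine synthesis, had 5.44 and 7.38 FPKM, PHGDH, the entry enzyme of serine synthesis, had 240 and 254 FPKM, and MTHFD2, of mitochondrial folate metabolism, had 36.3 and 38.5 FPKM. Of these 12, 7 rose in the MYC-inducible line, where 5.90% of all genes rose. None of 10 amino acid transporters passed 1.5-fold. SLC7A11, the cystine exchanger, was the highest at 2.08 and 2.75 FPKM (log2 change 0.39), and SLC3A2, its heavy chain partner, had 292 and 349 FPKM (0.26). Of 20 cytosolic aminoacyl-tRNA synthetases none passed 1.5-fold and 17 were higher with Dox, led by GARS at 61.3 and 75.4 FPKM, with a median of 0.06.

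Tetracyclines inhibit mitochondrial ribosomes, and no member passed 1.5-fold in the 5 lists of nuclear genes for mitochondrial ribosomal proteins, respiratory complexes, chaperones and proteases, and transcription and translation factors. SLC25A36, given above, and CLYBL, a mitochondrial enzyme that fell (3.68 and 2.28 FPKM) and was named after its value was seen, are in none of these lists. All 77 mitochondrial ribosomal protein genes were measured, with a median of 0.05 and 57 of them higher with Dox. The highest was MRPL57 at 26.2 and 31.6 FPKM (log2 change 0.27), and the lowest MRPS6 at 39.1 and 35.0 FPKM (-0.16). The 37 complex I subunits had a median of 0.03, and the 40 measured subunits of complexes II to V had a median of 0.01, whose sign turned under another scaling of the libraries. UQCRFS1, the Rieske iron-sulphur protein of complex III, stood apart from the rest, with 336 and 437 FPKM in the vector line and 318 and 442 FPKM in the MYC-inducible line, log2 changes of 0.38 and 0.48. LONP1, a matrix protease, had 84.9 and 98.98 FPKM (log2 change 0.22), and the list of mitochondrial chaperones and proteases had a median of 0.03. Of 15 transcripts of mitochondrial DNA itself that were looked up, none was among the symbols listed, so they could not be analysed here.

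Nuclear copies that resemble the mitochondrial 16S rRNA, the MTRNR2L genes, were lower with Dox in both lines. Of 10 symbols listed, 4 passed the filter. MTRNR2L2 had 50.3 and 39.6 FPKM in the vector line and 44.8 and 36.2 FPKM in the MYC-inducible line. MTRNR2L9 had 41.6 and 31.7 FPKM, then 43.9 and 29.6 FPKM, and MTRNR2L8 had 26.3 and 21.4 FPKM, then 25.4 and 20.7 FPKM. For each of the 4 genes both Dox libraries lay below both untreated libraries. Only MTRNR2L1, the lowest, fell past 1.5-fold, with 1.81 and 0.803 FPKM in the vector line and 1.497 and 0.612 FPKM in the MYC-inducible line, log2 changes of -1.08 and -1.17. The 4 summed to 120 and 93.5 FPKM in the vector line. These copies are close to each other and to the mitochondrial gene, so reads can be placed on any of them, and the family was looked up after the value of MTRNR2L1 was seen.

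Interferon-stimulated genes were mostly higher with Dox in the vector line, though their median depended on the untreated library used as reference. ISG15, a ubiquitin-like antiviral modifier, had 37.5 and 57.9 FPKM (log2 change 0.63, counting error 0.0696) and was the only one of 12 that rose. The MYC-inducible line had 33.9 and 34.4 FPKM, so the vector line with Dox was alone in being high. Of the 12, 11 were higher with Dox, with a median of 0.22 that became 0.0934 against the untreated MYC-inducible library, such as IFI6 (322 and 397 FPKM, log2 change 0.30) and OAS1, a sensor of double-stranded RNA (13.8 and 17.0 FPKM, 0.30). In the MYC-inducible line the median of the list was -0.35, with none raised and 3 lowered, against 5.90% and 8.85% of all genes.

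Immediate-early genes, which answer growth signals and stress within minutes, held 1 gene that rose among 17. EGR1 had 13.4 and 22.6 FPKM in the vector line (log2 change 0.75, counting error 0.0454) and 14.2 and 13.3 FPKM in the MYC-inducible line. IER2 (48.1 and 62.4 FPKM, 0.38), JUN (3.55 and 4.54 FPKM, 0.35) and FOS (13.1 and 15.7 FPKM, 0.26) were higher without passing 1.5-fold, FOSB (1.52 and 1.19 FPKM, -0.33) was lower, and the median of the list was 0.03. Among 8 measured cytokine and NF-κB genes CXCL8, the chemokine interleukin-8, rose with 4.63 and 7.93 FPKM (0.76, counting error 0.109). CXCL8 had 6.04 and 3.05 FPKM in the MYC-inducible line, the opposite direction. Its level in the untreated MYC-inducible library lay between those of the vector line. GADD45A, a growth arrest gene on the list of p53 targets, had 74.0 and 102 FPKM (0.47). None of the 18 measured p53 targets passed 1.5-fold, and CDKN1A, the cell cycle inhibitor p21, had 12.5 and 13.5 FPKM.

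Of 21 measured replication-dependent histone genes 8 rose and none fell, against 0.709% and 0.440% of all genes. Their median was 0.21, but it was 0.0592 without the filter on low values, when all 73 listed genes entered. HIST1H2AC had 1.35 and 3.33 FPKM, a 2.48-fold rise, and HIST2H3D had 0.944 and 2.21 FPKM (log2 change 1.14). HIST2H2AA3 and HIST2H2AA4, identical copies that share their values, had 3.86 and 6.63 FPKM. HIST3H2A had 5.34 and 8.24 FPKM. The most abundant, HIST1H2BK, had 42.8 and 44.6 FPKM (0.06), and HIST1H3G, the lowest in change, had 1.39 and 1.02 FPKM (-0.41). The 8 that rose were all under 7 FPKM on average. In the MYC-inducible line, where 5.90% of all genes rose, 3 of the 8 also rose. They were HIST1H3H (0.674 and 1.65 FPKM), HIST3H2A (3.89 and 6.92 FPKM) and HIST1H2BC (0.850 and 1.42 FPKM). HIST1H2AC (1.80 and 2.27 FPKM) and HIST2H3D (1.08 and 1.10 FPKM) did not pass 1.5-fold there. Most histone mRNAs lack a poly(A) tail, and how RNA was selected for these libraries is not given in the sources used here. Proliferation genes, which would be read beside histones, had a median of -0.00 over 25 genes, with CDK1 at 64.0 and 58.9 FPKM and PLK1 at 36.9 and 41.3 FPKM.

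Among the lists that were lower, the genes of cholesterol and fatty acid synthesis stood out by the number of members rather than by size. All 26 passed the filter, none passed 1.5-fold, and 22 were lower with Dox, with a median of -0.14. STARD4, a sterol transport protein, had 2.24 and 1.47 FPKM in the vector line and 2.84 and 1.61 FPKM in the MYC-inducible line, log2 changes of -0.57 and -0.78. INSIG1, which holds back the SREBP factors, had 9.18 and 7.02 FPKM (-0.38), HMGCS1, at the entry of the pathway, had 6.74 and 5.53 FPKM (-0.28), and SQLE, squalene epoxidase, had 22.4 and 18.5 FPKM (-0.27). SREBF1, an SREBP gene, had 9.06 and 10.6 FPKM (0.23), the highest of the list, but 12.6 FPKM in the untreated MYC-inducible library. In the MYC-inducible line the same list had a median of -0.08, and INSIG1, HMGCS1 and SQLE there had log2 changes of -0.08, -0.03 and 0.01. The untreated MYC-inducible library was above the untreated vector library for SCD (117 FPKM against 95.3 FPKM), HMGCS1 (8.69 FPKM against 6.74 FPKM) and INSIG1 (11.1 FPKM against 9.18 FPKM), so that these levels also varied between cultures without Dox.

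**Figure D4:**
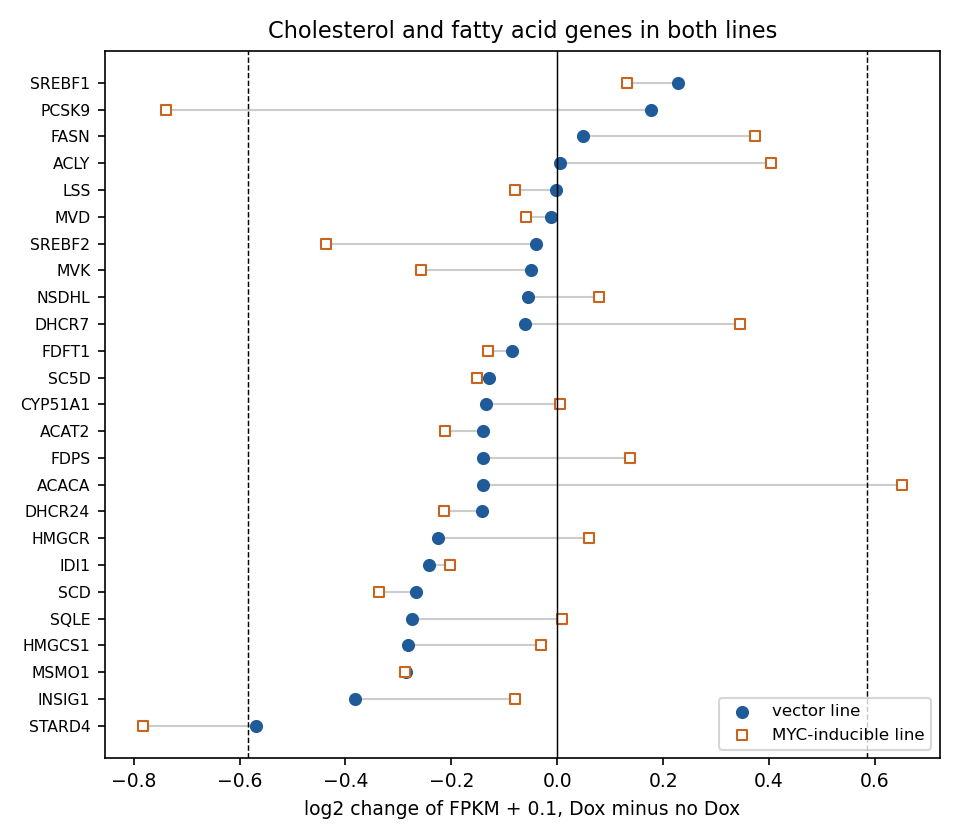
log2 change with Dox of 25 of the 26 cholesterol and fatty acid genes in the vector line (circles) and in the MYC-inducible line (squares), with 1.5-fold as dashed lines. In the vector line most lie below 0 and none past 1.5-fold, with STARD4 at -0.57 the lowest.

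Few genes fell that were well expressed. Besides short RNAs, 4 symbols at or above 5 FPKM fell, namely PCSK2, PRR4, RPL21 and SNAR-G1. SNAR-G1, a small cytoplasmic RNA, had 18.6 and 10.7 FPKM in the vector line, but 9.18 FPKM without Dox and a listed 0 with Dox in the other, and RPL21 is described with the copied genes below. PCSK2, a prohormone convertase, had 16.6 and 10.8 FPKM in the vector line (log2 change -0.61, counting error 0.0422) and 16.5 and 6.95 FPKM in the MYC-inducible line (-1.24). PRR4, a proline-rich secreted protein that overlaps PRH1 in the annotation, had 7.22 and 4.57 FPKM and then 7.58 and 4.63 FPKM, with log2 changes of -0.65 and -0.70. In both genes both Dox libraries were below both untreated libraries. MGP, matrix Gla protein, an inhibitor of calcification, had 3.17 and 1.36 FPKM in the vector line and 3.16 and 1.07 FPKM in the other, log2 changes of -1.16 (counting error 0.194) and -1.47. MMP3, the metalloproteinase stromelysin-1, had 1.79 and 0.941 FPKM, then 2.39 and 0.923 FPKM, with log2 changes of -0.86 and -1.28. PI3, the elastase inhibitor elafin, had 1.32 and 0.638 FPKM, then 2.23 and 0.926 FPKM, but with a counting error of 0.569 its change of -0.94 rested on few fragments. TP53TG3B, of a multicopy family, had 2.09 and 0.886 FPKM, then 1.82 and 0.395 FPKM. Both Dox libraries lay below both untreated ones for MGP, MMP3, PI3 and TP53TG3B as well.

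MMP3 was the only one of 11 measured metalloproteinase and inhibitor genes past 1.5-fold. Its neighbour in the gene cluster MMP1, interstitial collagenase, had 5.64 and 4.04 FPKM (log2 change -0.47), MMP8 had 21.2 and 17.5 FPKM (-0.27), while MMP14 had 239 and 234 FPKM and TIMP1 had 540 and 558 FPKM. The 18 measured melanocyte lineage genes had a median of -0.07, with 12 lower and none past 1.5-fold. EDNRB, the endothelin receptor, had 16.7 and 13.0 FPKM (-0.36), TYRP1, of the melanosome, 20.2 and 15.8 FPKM (-0.35) and DCT 75.6 and 61.9 FPKM (-0.29), beside the level PMEL and MITF given above. NQO1, a quinone reductase and NRF2 target, had 417 and 316 FPKM in the vector line (-0.40) and 427 and 257 FPKM in the MYC-inducible line, whereas the median of the 9 NRF2 targets was -0.05. MT2A, a metal-binding metallothionein, had 3170 and 2524 FPKM (-0.33), then 3021 and 1189 FPKM, and the other 3 measured genes of its list lay between -0.11 and 0.37.

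The remaining lists were close to level, and no member of them passed 1.5-fold. Their medians were -0.01 for 17 ER chaperones and degradation genes, -0.02 for 23 glycolytic genes, 0.03 for 13 hypoxia genes, 0.03 for 8 iron genes, 0.04 for 11 heat shock genes, 0.05 for 11 autophagy genes, 0.02 for 16 mitochondrial transcription and translation factors, and 0.00 for 10 MAPK feedback genes. For the last 2 of these the sign turned with the scaling. The ER chaperone list ranged from DNAJB9 (16.4 and 14.3 FPKM, log2 change -0.20) to SDF2L1 (191 and 228 FPKM, 0.25). PKM, a glycolytic kinase, had 1344 and 1634 FPKM (0.28) and LDHA, lactate dehydrogenase, 1430 and 1246 FPKM (-0.20). MYC had 58.3 and 54.8 FPKM (-0.09) in the vector line and 76.5 and 87.1 FPKM (0.19) in the MYC-inducible line. The log2 difference of MYC between the untreated libraries, 0.39, was larger than its change with Dox in either line. The 18 nucleolar MYC targets had a median of 0.02 in the vector line against 0.85 in the MYC-inducible line. CLK4, a splicing kinase, had 2.75 and 2.31 FPKM (-0.24, counting error 0.134), and CLK1, CLK2 and CLK3 changed by at most 0.07 on the log2 scale. The CLK, SR protein and PRMT5 list of 18 had a median of 0.01, whose sign turned with the scaling. The 5 most abundant genes, RPL41, RPL37A, RPLP1, RPL13AP5 and RPS18, changed by at most 0.07 on the same scale.

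Several of the largest falls were symbols that share sequence with another gene, so that the reads may have been divided otherwise between copies. SERF1A had 6.03 and 0.00629 FPKM, but SERF1A and its copy SERF1B together had 81.2 and 81.7 FPKM. PHOSPHO2-KLHL23, a read-through of neighbouring genes, had 3.53 and 0.265 FPKM while KLHL23 had 1.85 and 4.43 FPKM, and their sum was 5.38 and 4.69 FPKM. FAM45A had 2.55 and 0.311 FPKM, and with FAM45B the sum was 10.04 and 9.26 FPKM. RPL21 had 53.5 and 33.2 FPKM, and with RPL21P28 the sum was 2059 and 2022 FPKM. NUDT4P2, which had 2.15 and 5.43 FPKM, and SRGAP2C, which had 1.42 and 0.503 FPKM, also had nearly level family sums of 27.1 and 26.7 FPKM and of 28.3 and 30.4 FPKM. The families were put together after these values were seen, and none of these 7 symbols is read here as a change of its gene.

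Of 48 short noncoding RNAs kept by the filter, 14 rose and 10 fell, against 0.709% and 0.440% of all genes. The list's median was 0.00, and 34 of the 48 were listed at 0 in at least 1 vector library. SNORD12B, for example, had 765 FPKM in the untreated vector library and was listed at 0 in the other 3 libraries. SNORA18, SNORA41 and SNORA51 each had 6.90 FPKM without Dox and were listed at 0 with Dox. FPKM values of RNAs about as short as a sequenced fragment can fail, and no fold of theirs is read here as a change.

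The overlap with the MYC-inducible line, which had its own pair of libraries, was partial. Of the 65 raised genes without short RNAs, 15 (23.1%) also rose in the other line's pair, where 5.90% of all genes rose. A further 8 fell there and 42 stayed within 1.5-fold. The 15 were 2.35% of the 637 genes raised in that line. Of the 39 lowered genes, 15 (38.5%) also fell there, where 8.85% of all genes fell, 7 rose and 17 stayed within 1.5-fold. These 15 were 1.54% of 973. The 65 and the 39 still hold the symbols with copies described above, and the shares of all genes include short RNAs. The lines shared Dox, but the MYC-inducible line also carried the induced MYC gene. When the vector line with Dox was set against the untreated MYC-inducible line instead, which keeps the same Dox library, 38 of the 65 and 20 of the 39 were past 1.5-fold in the same direction. The untreated lines themselves differed at least 1.5-fold in 10 of the 65 and 11 of the 39.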

How the data were processed

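RNA-Seq was made from SK-MEL-28 cells with the empty vector or the inducible MYC gene, 1 library per condition. The table that the authors deposited holds an FPKM value for each gene symbol and library, and the submitters' processing notes name TopHat2 2.0.14, Cufflinks and hg19/GRCh37 without their roles. Strand, annotation and counts are not given in the sources used here. Symbols with several rows (609) were summed, a row without a symbol, which held no signal, was dropped, and genes averaging 1 FPKM or more across all libraries were kept. The change was the difference of log2(FPKM + 0.1), and 1.5-fold marked a rise or fall. Without replicates no test was made, and FPKM values were not put through a count model. Approximate depths came from 1-fragment values of genes with a single transcript, and about 52.6% and 52.2% of the low values in the vector libraries were within 5% of a fragment of a whole number, which did not allow reads to be recovered.

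The genes named were those averaging 5 FPKM or more among the 15 largest rises or falls past 1.5-fold, those with a mean from 1 to 5 FPKM among the 8 largest (short RNAs and uncharacterised symbols left out), every member of a gene list past 1.5-fold, the highest and lowest member of each list, the 5 most abundant genes, MYC and CLK1 to CLK4. Other list members given with values, such as CTH, IFI6, JUN, INSIG1 and TYRP1, come under none of these rules and serve as examples. Members, lists and rules were chosen with earlier results of these data known. Short RNAs were symbols starting with SNORA, SNORD, SCARNA, RNU or MIR and a digit, which also takes in some MIR host genes. Coordinates came from GENCODE release 44 on GRCh37, and promoter windows from RefSeq. The calculations were tested on simulated data. Alternatives were pseudocounts of 1 and 0.01, no filter or 5 FPKM, 3 scalings, the untreated MYC-inducible line as reference, symbols with several rows or short RNAs left out, a 2-fold threshold and the mean of a list. Splicing events were not analysed here. Values of a few list members are not reported here by name, and 1 of them is left out of the plot of cholesterol genes. Software was Python 3.11.15 with pandas 2.3.3, numpy 2.4.6 and matplotlib 3.10.9.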

Additional observations from a re-analysis of the deposited data

Results flagged for a closer look

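Past 1.5-fold and short RNAs left aside, 8 genes that rose with Dox in the vector line fell in the MYC-inducible line, and 7 that fell in the vector line rose in the other. With 1 library on each side, this opposition of the lines was not tested. The 6 that come under the rule for named genes are given here. The values below are the log2 change of the vector line minus that of the MYC-inducible line. CXCL8 differed by 1.73 (0.76 against -0.96) and CD52, a lymphocyte glycoprotein that overlaps UBXN11 in the annotation, by 2.35 (1.15 and -1.20), from 0.866 and 2.04 FPKM in the vector line and 1.76 and 0.709 FPKM in the other. The other 4 share sequence with copies or neighbours. SERF1A differed by -10.2 (-5.85 and 4.36), PHOSPHO2-KLHL23 by -5.36 (-3.32 and 2.05), RPL21 by -3.07 (-0.69 and 2.38) and NUDT4P2 by 2.26 (1.30 and -0.96).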

How the results depend on the processing

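No paired analysis was possible because the labels carry no replicate numbers and every condition had 1 library. With 1 library a side none could be left out either. Of 351 recalculated counts and list medians, 333 moved by less than the limit set for them (1.5 times for a count, 0.106 on the log2 scale for a median, the robust SD between the untreated lines). The counts of raised and lowered genes, 79 and 49 as reported, became 43 and 22 with a pseudocount of 1, 529 and 387 without the filter, 25 and 8 with a filter at 5 FPKM, and 28 and 15 at 2-fold, and the lowered genes became 88 against the untreated MYC-inducible line. Against that reference the medians were -0.27 for the cholesterol list, -0.18 for NRF2 targets, -0.12 for cytokine and NF-κB genes and 0.0934 for interferon-stimulated genes. With means in place of medians the ATF4 and CHOP list stood at 0.49, the histones at 0.34, the metalloproteinase list at -0.14 and the short RNAs at 0.51, and without the filter the histone median was 0.0592. Among 1231 recalculated values of named genes, sign changes were counted only for genes past 1.5-fold. Smaller changes could also turn, such as SREBF1 (0.23 as reported, -0.25 against the untreated MYC-inducible line). Counted in this way, 11 values changed sign, all against the untreated MYC-inducible line. They were KLHL23 (-0.35), NUDT4P2 (-0.76), PHOSPHO2-KLHL23 (0.41), RPL21 (2.53), SERF1A (0.0136), SNAR-G1 (0.22), MIR3648 (-0.0477), SNORA8 (-0.34), SNORA10 (-1.34), SNORA40 (6.87) and SNORD22 (7.98). The last 2 were listed at 0 in that reference, so their values depend on the pseudocount. The cause of these shifts was not tested. Under the scalings the sign of the median turned for complexes II to V, mitochondrial transcription and translation factors, MAPK feedback genes and the CLK and SR protein list, and under any alternative also for amino acid transporters, hypoxia, p53, iron, heat shock, cytokine and proliferation genes. Depth limits the low genes most, and a counting error says nothing of the spread between cultures.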
